A study of Mus musculus with 14 samples.

Results

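Transcripts of the actin and cell motility machinery were followed in mouse helper T cells. They were 40 genes for the Arp2/3 complex, its activators, small GTPases and their activators, actin binding proteins, membrane and adhesion linkers and myosins, chosen by name. Of these, 36 had at least 1 probe set that was listed with that gene alone, out of 18194 such genes on the array. Between them the 36 had 90 probe sets before the filter on low signal. All 36 genes passed this filter, and each was read on its probe set of highest mean signal, with 48 other probe sets also tested. The probe sets of Arpc1b were shared with another gene, and Arpc3, Actr2 and Rock2 were not analysed here. Total RNA came from T cells grown under Th1 or Th2 polarising conditions over 2 weeks and was hybridised to 14 Affymetrix arrays, 7 for each cell type. In each cell type there was 1 array of untreated cells, 1 with siRNA against Thy1, 1 with siRNA against Trpm4, 1 each at 4 h and 12 h of stimulation with the retroviral vector alone, and 1 each at 4 h and 12 h with a retrovirus carrying dominant negative (DN) Trpm4. The labels name neither the stimulus nor the mouse strain, and they give no time for the untreated and siRNA arrays. Trpm4 is a calcium-activated cation channel, and Thy1 a surface glycoprotein of T cells that served as the siRNA control.

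A migrating T cell pushes its front forward with branched actin filaments. The GTPases Rac and Cdc42, switched on by exchange factors such as Vav1, Dock2 and Dock8, act through the WAVE and WASP proteins on the Arp2/3 complex, which starts a new filament on the side of an existing one. Profilin, cofilin and thymosin beta 4 control the supply of actin monomers, talin and vinculin tie filaments to integrins, ezrin, radixin and moesin tie them to the membrane, and RhoA with its kinases and non-muscle myosin contracts the rear. Th1 and Th2 cells use this machinery to enter tissue and to build the contact with antigen-presenting cells.

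The promoters of 3 members are shown, from RefSeq on the GRCm38.p6 build, 5′ to 3′ on the strand of the gene, from 250 bases before to 50 after a transcript start. Vcl, which encodes vinculin, is shown because it had the largest difference of any member between the cell types and between siRNA and untreated cells. Its window lies at chr14:20929148-20929447 on the + strand. Arpc4 (chr6:113377863-113378162, + strand), a subunit of the Arp2/3 complex, is shown because it shares a motif with Vcl. Dock8 (chr19:24999279-24999578, + strand), an exchange factor for Cdc42, is shown because its levels were lower with siRNA than in untreated cells, where those of Vcl were higher. Capitals mark the CArG box, the site known to bind serum response factor, a regulator of many cytoskeletal genes whose coactivators sense actin monomers.
Vcl: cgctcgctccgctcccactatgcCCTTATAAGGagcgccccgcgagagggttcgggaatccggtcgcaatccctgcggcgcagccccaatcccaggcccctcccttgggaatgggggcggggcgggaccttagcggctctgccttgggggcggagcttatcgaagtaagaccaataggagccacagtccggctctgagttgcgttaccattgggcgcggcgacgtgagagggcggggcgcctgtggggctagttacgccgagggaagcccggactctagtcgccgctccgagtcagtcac
Arpc4: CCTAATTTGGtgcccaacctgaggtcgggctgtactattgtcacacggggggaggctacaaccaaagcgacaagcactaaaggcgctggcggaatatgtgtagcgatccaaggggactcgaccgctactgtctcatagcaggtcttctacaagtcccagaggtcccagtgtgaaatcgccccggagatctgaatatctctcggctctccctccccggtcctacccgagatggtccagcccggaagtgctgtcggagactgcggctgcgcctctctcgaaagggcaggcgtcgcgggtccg
Dock8: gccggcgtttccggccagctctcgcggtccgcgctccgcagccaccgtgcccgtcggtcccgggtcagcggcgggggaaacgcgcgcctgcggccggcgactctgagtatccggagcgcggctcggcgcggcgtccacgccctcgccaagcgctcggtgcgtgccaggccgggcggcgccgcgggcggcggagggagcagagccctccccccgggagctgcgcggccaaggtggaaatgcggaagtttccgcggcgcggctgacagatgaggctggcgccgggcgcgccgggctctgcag
The CArG box lay 227 to 218 bases before the start in Vcl and 250 to 241 bases before it in Arpc4, and it was not found in the Dock8 window. It was searched by its consensus, which reads the same on both strands. Of the 35 members with an entry, 2 held one, in 2 of 43 windows (4.65%), against 535 of 32851 promoter windows of all genes (1.63%). Among other actin genes, from a list of 88, the box was found in Actg1, Myl6, Myl9, Myo1e and Tiam1. The AP-1 motif TGANTCA, which reads the same on both strands and does not overlap the CArG box, was found in the window of 1 member, Ezr, and in 7.81% of all windows. A match in these letters is a description of the sequence and was not set against the transcript levels by any test.

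The summed signal of an array was between 7324678 and 10608719, and with 14 arrays the precision is limited by their number. Each condition had 1 array, so arrays matched by treatment or cell type took the place of replicates, and the p-values measure only the spread between these samples, which may be technical. Errors after ± are standard errors of the limma fit on the log2 scale, and adjusted p-values are those of limma with Benjamini-Hochberg adjustment over 29467 probe sets, with 0.05 as the threshold. Deposited signals are printed as given, while every log2 level or difference is on quantile normalised values, log2(signal + 16). The deposited Il4 signal was 226 to 8478 on Th2 arrays and 2.96 to 25.8 on Th1 arrays, without overlap. All 4 Th2 markers tested were lower in Th1, though Il13 overlapped, with 1379 and 1424 in Th1 with siRNA against 266 in untreated Th2. Of 5 Th1 markers 3 were higher in Th1, while Tbx21 and Cxcr3 did not pass (adjusted p = 0.553 and 0.702, limma), and Tbx21 was higher in Th2 with siRNA (830.3 and 862 against 447 and 462). Summed signals of B cell, macrophage and dendritic cell, fibroblast and erythroid markers stayed between 39.7 and 489 on every array. In untreated cells the sum of CD8 T and natural killer cell markers was 6641 in Th1 and 246.6 in Th2, and Klrd1 and Klrk1 made up most of the Th1 sum. Their part in differences between the cell types was not tested, and in RNA of whole cultures fewer cells of a type and less RNA per cell cannot be told apart.

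The arrays fell into 2 kinds by the ratio of 3′ to 5′ signal of the Gapdh control. The ratio was 5.43 to 5.91 on the log2 scale on 6 arrays, namely all 4 retrovirus arrays of Th2 cells and the 4 h retrovirus arrays of Th1 cells, and -0.25 to 0.04 on the other 8. Levels of 13 of the 36 members (36.1%) did not overlap between the kinds, against 23.4% of all probe sets tested. Of these 6 members were lower and 7 higher on the biased arrays, where 11.8% and 11.7% of all probe sets were. The monomer binding gene Pfn1 (profilin) had normalised log2 levels of 8.45 to 9.02 on the 6 arrays and 11.28 to 12.16 on the other 8. Arpc4 had levels of 7.36 to 7.73 and 9.66 to 10.52. Both genes were thus far lower on arrays of strong 3′ bias in each cell type. In Th2 cells these were exactly the retrovirus arrays, so there the bias cannot be told apart from retrovirus and stimulation. In Th1 cells they were exactly the 4 h retrovirus arrays, so there it cannot be told apart from that condition. Rac2, a GTPase of blood cells, Was, the WASP gene, Rhoh and the bundling protein gene Lcp1 were also lower there without overlap, with mean log2 differences of -1.54, -1.35, -0.98 and -0.47. Higher without overlap, on the probe sets used, were Vav1 (1.50), Diaph1 (0.85), Actr3 (0.82), Rock1 (0.72), Cfl1 (0.60), Arpc5 (0.60) and Arpc2 (0.30). Another probe set of Diaph1 went the opposite way, with deposited signals of 38.7 to 71.8 on the 6 arrays and 153 to 537 on the other 8. Its last probe set was higher on the 6 arrays (324 to 412 against 62.5 to 136), so no direction can be given for Diaph1. Other probe sets of the remaining genes are not compared here between the kinds. Any comparison that sets the 2 kinds side by side therefore cannot be told apart from this bias, and in the present design these are 12 h against 4 h in Th1 cells and Th1 against Th2 at 12 h.

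**Figure D1:**
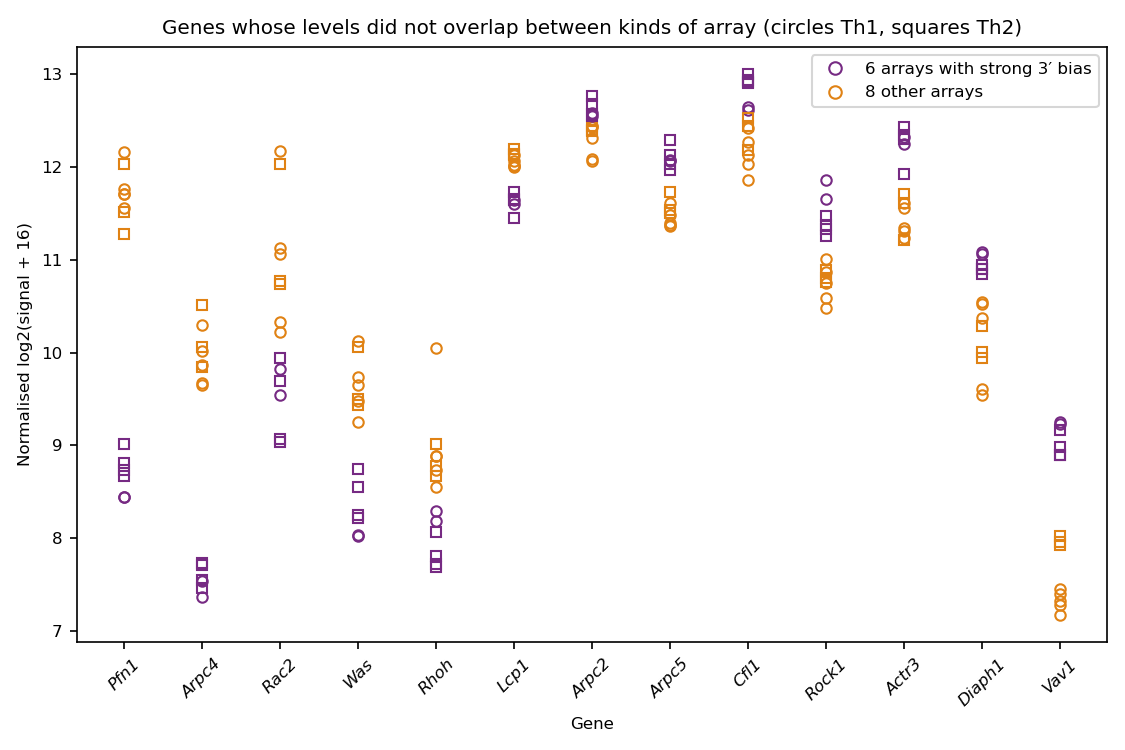
Normalised log2 level (y axis) of the 13 genes whose levels did not overlap between the 6 arrays with strong 3′ bias (purple) and the 8 other arrays (orange), with circles for Th1 and squares for Th2. Pfn1 and Arpc4 lie lower on the biased arrays (mean differences of -3.03 and -2.43) and Vav1 higher (1.50). Each gene is shown on the probe set used, and another probe set of Diaph1, not shown, went the opposite way.

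**Figure D2:**
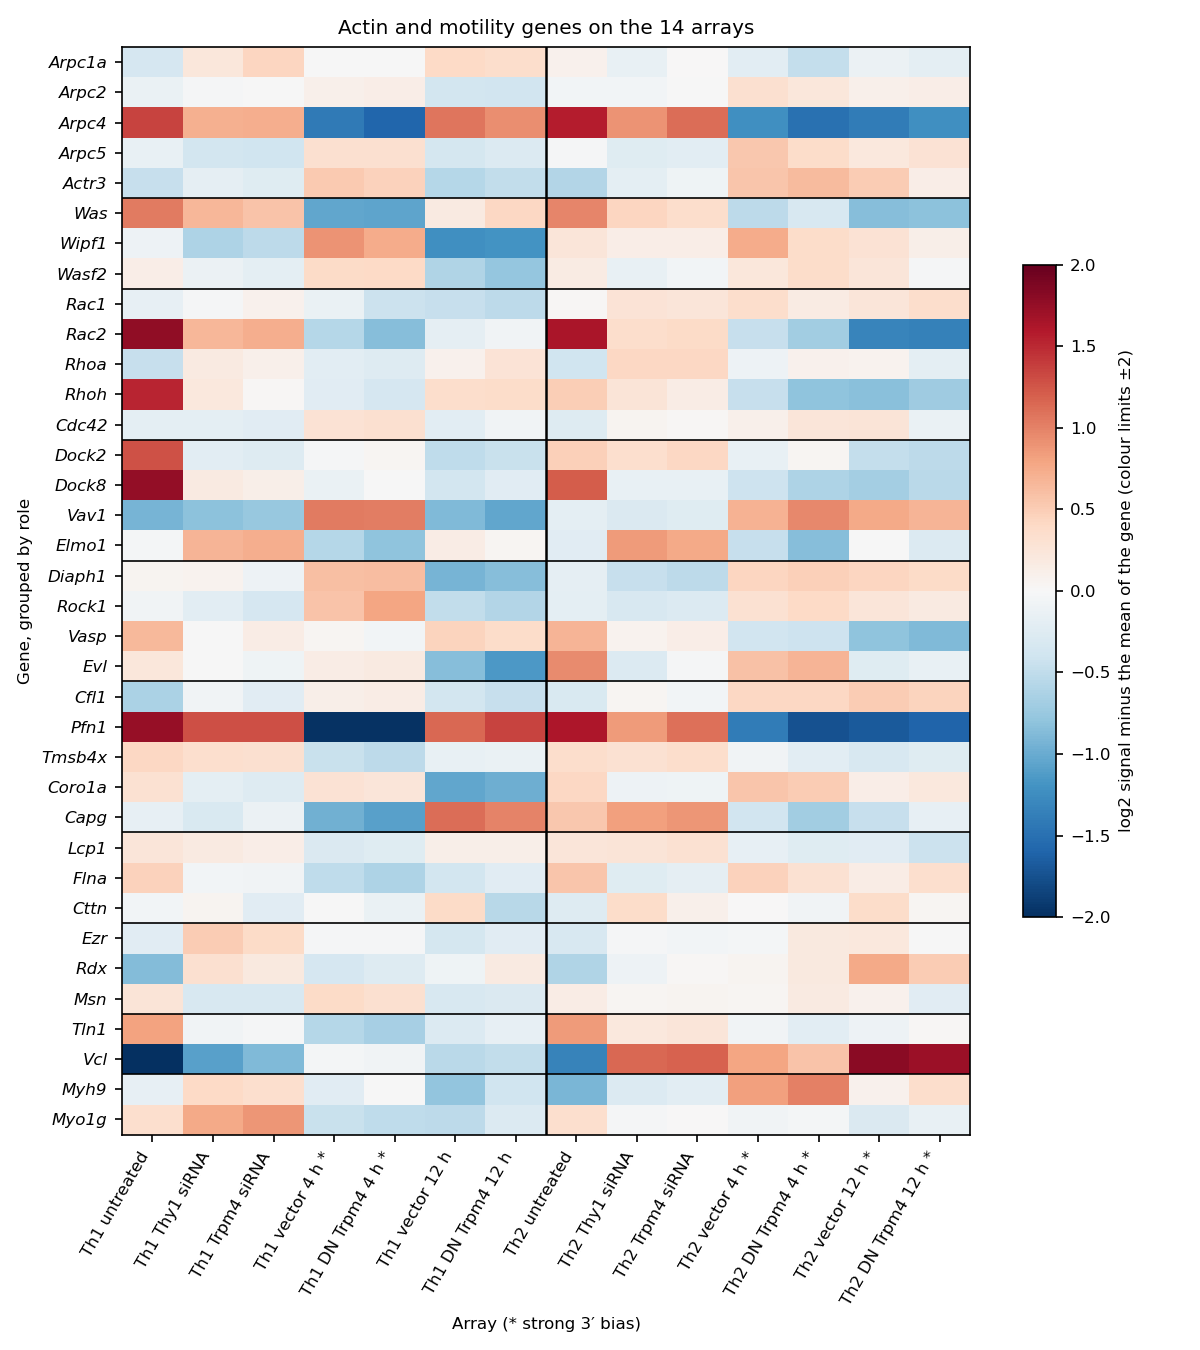
Colour shows the normalised log2 level of each of 36 genes (rows, in blocks by role) on each of 14 arrays (columns, an asterisk for strong 3′ bias) minus the mean of that gene over the arrays, with colours limited at ±2. On the probe sets shown, Pfn1 and Arpc4 follow the kind of array, Rac2, Dock8 and Tln1 are highest in untreated cells, and Vcl is higher in Th2 than in Th1 in each treatment. Another probe set of Tln1, not shown, rose with siRNA over untreated cells.

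The series asks what inhibition of Trpm4 changes. The targeted transcript was read first, on 1 probe set. Its deposited signal with Thy1 siRNA and Trpm4 siRNA was 100.3 and 58.4 in Th1 cells, and 133 and 84.5 in Th2 cells. With vector and DN Trpm4 it was 70.5 and 119 in Th1 at 4 h, 75.3 and 516 in Th1 at 12 h, 117 and 128 in Th2 at 4 h, and 135 and 129 in Th2 at 12 h. The Trpm4 signal was lower with its siRNA in both cell types without passing the test (-0.68 ± 0.10, limma adjusted p = 0.409, 2 pairs), and whether the probe set reads the DN construct is not known. No member passed the test over the 6 pairs of Trpm4 inhibited against control arrays, where 0% of all probe sets passed. At an unadjusted p under 0.05 there were 3 of 36 members and 1733 of 29467 probe sets. The median difference was -0.005 over the members and 0.001 over all probe sets.

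Cttn, which encodes cortactin, a stabiliser of actin branches, was the single member whose 6 pairs all had one sign. Its deposited signal with control and with inhibition was 83.2 and 70.9 for siRNA in Th1, 112 and 96.1 for siRNA in Th2, 92.8 and 84.0 in Th1 at 4 h, 104 and 49.9 in Th1 at 12 h, 97.7 and 92.8 in Th2 at 4 h, and 113 and 98.0 in Th2 at 12 h. The level was lower with inhibition in each pair, but the control and inhibited arrays overlapped as groups. The difference was -0.33 ± 0.10 (adjusted p = 0.809, limma, 6 pairs), from -0.93 in Th1 at 12 h to -0.08 in Th2 at 4 h. The other 2 probe sets of Cttn gave -0.14 and -0.07. The difference of the Trpm4 effect on Cttn between cell types was -0.22 ± 0.21 (adjusted p = 1, limma) and turned to 0.019 without the Th1 pair at 12 h.

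By method, no member passed for DN Trpm4 over vector (3 of 36 at an unadjusted p under 0.05, 997 of 29467 over all) or for Trpm4 siRNA over Thy1 siRNA (1 of 36, 3318 over all), and 0% of all probe sets passed in each. With trend and robust eBayes 85 of all probe sets passed for the siRNA pair, with no member among them. Nor did any pass for the difference of the Trpm4 effect between Th1 and Th2, where 0 of 36 had an unadjusted p under 0.05, 1032 of 29467 probe sets did, and again 0% passed. With the DN retrovirus Myh9, the heavy chain of non-muscle myosin IIA, had a log2 difference of 0.26 ± 0.09 and was above vector in 4 of 4 pairs (0.18 to 0.39). The engulfment gene Elmo1, whose product works with DOCK proteins on Rac, had a difference of -0.25 ± 0.10 and was below vector in 4 of 4. The filament elongation gene Vasp had one of -0.07 ± 0.09, also below in 4 of 4, and each of the 3 had an adjusted p of 1 (limma). With siRNA, Arpc1a (0.18), Capg (0.13) and Pfn1 (0.13) were above control in both pairs and Cttn (-0.27), Rhoh (-0.15) and Cfl1 (-0.12) below in both, with adjusted p from 0.433 to 0.737 (limma). The Thy1 signal with Thy1 siRNA and with Trpm4 siRNA was 2735 and 7254 in Th1 and 937 and 4362 in Th2, a difference that did not pass (1.72 ± 0.20, adjusted p = 0.409, limma). Of the 76 other actin genes tested, 0 passed in any of these 4 comparisons. At an unadjusted p under 0.05 there were 3 for all Trpm4 inhibition, 6 for the DN retrovirus, 0 for siRNA and 1 for the difference between cell types.

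**Figure D3:**
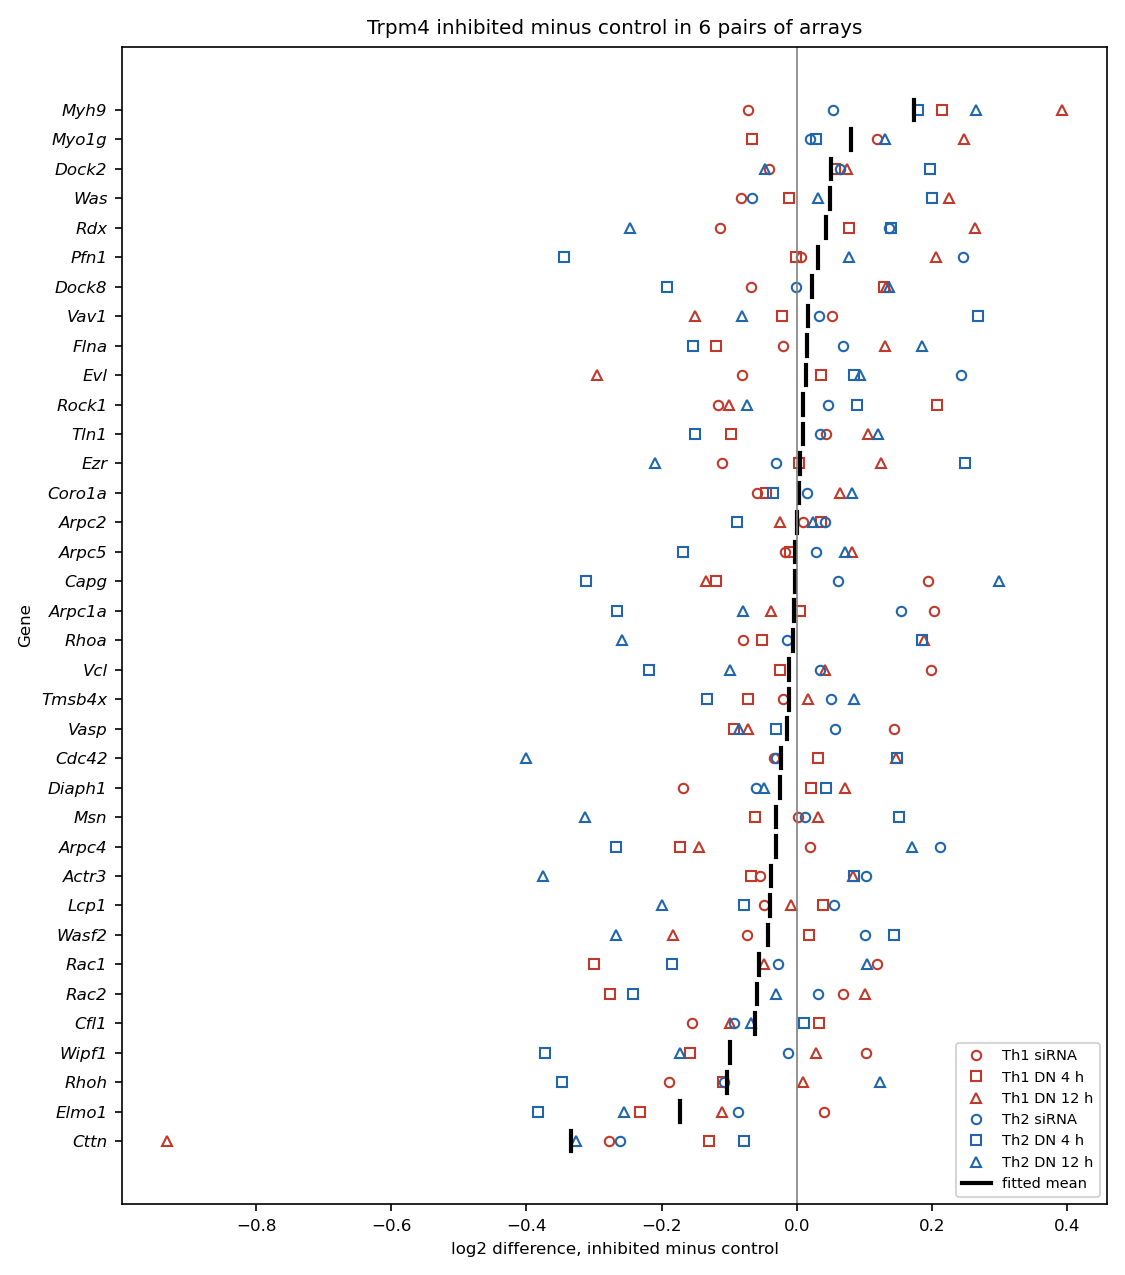
Log2 difference of Trpm4 inhibited minus control (x axis) for 36 genes (rows, ordered by the fitted mean, black bar) in each of 6 pairs of arrays, red for Th1 and blue for Th2. Most pairs scatter on either side of 0, Cttn lies below 0 in all 6, and its Th1 pair at 12 h is the farthest out at -0.93.

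Th1 and Th2 cells were then compared over the 7 treatments. Vinculin was the member with the largest difference. In Th1 cells the deposited Vcl signal was 14.7 untreated, 89.8 with Thy1 siRNA, 117 with Trpm4 siRNA, 230.3 and 227 at 4 h with vector and DN Trpm4, and 130.3 and 133 at 12 h. In Th2 cells it was 71.9 untreated, 600.0 with Thy1 siRNA, 647 with Trpm4 siRNA, 413 and 344 at 4 h, and 697 and 706 at 12 h. The Th2 array was the higher one in every treatment, and the cell types overlapped only because untreated Th2 cells were below several treated Th1 arrays. Vcl was lower in Th1, with a log2 difference of -1.67 ± 0.23 (adjusted p = 0.00244, limma, 7 pairs), and the pairs ran from -2.35 to -0.64. It stayed lower among the 3 pairs of low 3′ bias (-1.90, adjusted p = 0.0470, limma) and without the 12 h pairs (-1.43, adjusted p = 0.0264). The call was lost when the pairs were not used as a block (adjusted p = 0.0848, limma) and when arrays were averaged to 4 sets (-1.64, adjusted p = 0.0582), in a range of 0.00174 to 0.0848 over 19 alternatives. The second probe set of Vcl had a mean signal of 18.5, near the floor, and a difference of -0.15 (adjusted p = 0.693, limma).

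Of the 36 members, 2 passed in Th1 minus Th2, 0 higher and 2 lower in Th1, and that share of 5.56% stood beside 9.79% of all probe sets, of which 3.65% were higher and 6.14% lower. The second was Rac1, the GTPase that drives the leading edge. Its deposited signal was 1868 to 3976 (median 2209.9) in Th1 and 2562 to 4545 (median 3050.3) in Th2. Rac1 was lower in the Th1 array of each pair while the groups overlapped, with a log2 difference of -0.47 ± 0.13 (adjusted p = 0.0446, limma, 7 of 7 pairs). Its second probe set gave 0.07 (adjusted p = 0.732, limma). The Rac1 call was lost in 12 of 19 alternatives, among them the omission of any of the 6 pairs other than the untreated pair (adjusted p from 0.0616 to 0.120), and adjusted p ranged from 0.0232 to 0.449 over all of them. With both 12 h pairs left out, Rac1 did not pass (-0.35, adjusted p = 0.166, limma) and Capg was lower in Th1 (-0.76, adjusted p = 0.0344). There 4.26% of all probe sets passed. Capg lay from -1.13 to -0.38 in those 5 pairs and at 1.58 and 1.14 in the 12 h pairs. Over the 3 pairs of low 3′ bias Capg did not pass (-0.94, adjusted p = 0.0942, limma).

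Other members pointed the same way in 7 of 7 pairs without passing. Dock8, an exchange factor for Cdc42, had normalised log2 levels of 8.11 to 10.23 (median 8.47) in Th1 and 7.80 to 9.68 (median 8.06) in Th2. Its Th1 array was above its Th2 array in every treatment, by 0.38 ± 0.11 (adjusted p = 0.0530, limma), and the difference passed in 4 of 19 alternatives. Its other 2 probe sets gave -0.32 and -0.18 (adjusted p = 0.302 and 0.565, limma), so the direction rests on 1 probe set. Values below Th2 in all pairs were seen for Arpc5, an Arp2/3 subunit (-0.26, adjusted p = 0.185, limma), Cfl1, the filament severing protein cofilin (-0.42 ± 0.14, adjusted p = 0.0864, limma, with 1.05 on its other probe set), Coro1a, a coronin of blood cells (-0.47 ± 0.18, adjusted p = 0.124), and Tln1, the integrin activator talin (-0.27 ± 0.11, adjusted p = 0.144). Without the 12 h pairs, whose arrays differ in 3′ bias, Arpc5 lay at -0.14, Cfl1 at -0.23, Coro1a at -0.18 and Tln1 at -0.31. Over the 3 pairs of low 3′ bias they lay at -0.14, -0.20, -0.12 and -0.19, and they did not pass in either subset. Another probe set of Coro1a passed at -0.72 (adjusted p = 0.0410, limma), as did 4 more of the 48 other probe sets of members, of Cttn (-1.63), Rdx (-0.49), Diaph1 (1.22) and Wasf2 (0.50), named after their values were seen. The median over the 36 members was -0.12, against 0.01 over all probe sets. In the pairs at 12 h, where the kinds of array differ, Pfn1 differed by 2.83 and 2.95 and Arpc4 by 2.47 and 2.16, while in the other 5 pairs Pfn1 lay between -0.57 and 0.43 and Arpc4 between -0.38 and -0.10.

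Among the other actin genes 14 of 76 passed (18.4%), 2 higher and 12 lower in Th1, against 9.79% of all probe sets. Lower in 7 of 7 pairs were Gsn, the severing protein gelsolin (-3.06 ± 0.33, adjusted p = 0.000628, limma), Tiam1, an exchange factor for Rac (-2.53 ± 0.15), Skap1, an adaptor of integrin activation (-1.63 ± 0.29), and Coro7, another coronin (-1.29 ± 0.14). Higher in 6 of 7 pairs were Apbb1ip, the Rap1 effector that recruits talin (1.38 ± 0.32), and Pfn2, a second profilin (0.85 ± 0.24). Values of these genes without the 12 h pairs, whose arrays differ in 3′ bias, are not given here, and each was read on 1 probe set. Between 4 h and 12 h in Th1, where the kinds of array differ, Apbb1ip differed by 2.23 and Skap1 by -2.68.

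**Figure D4:**
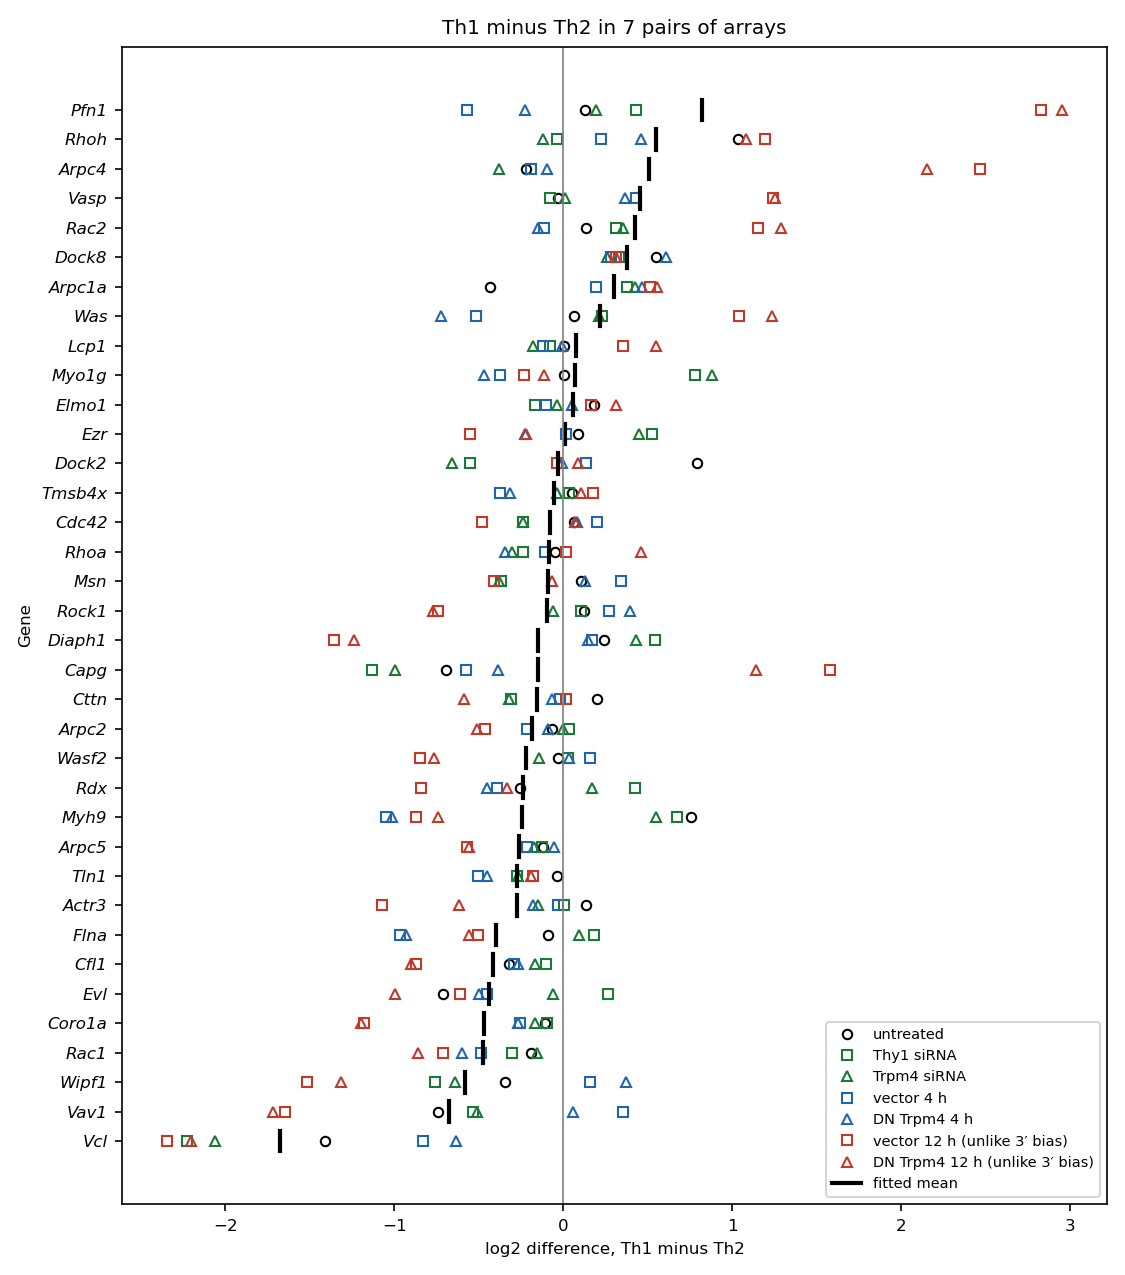
Log2 difference of Th1 minus Th2 (x axis) for 36 genes (rows, ordered by the fitted mean, black bar) in each of 7 pairs of arrays, with red symbols for the 12 h pairs, whose arrays differ in 3′ bias. Vcl lies below 0 in all 7 pairs, from -2.35 to -0.64, and the red symbols of Pfn1, Arpc4, Rac2 and Capg stand apart from the others.

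Against untreated cells of the same type, the siRNA arrays showed members that rose and members that fell. All 6 arrays of this comparison had low 3′ bias, but siRNA and control siRNA cells differed from untreated cells in ways the labels do not state, so transfection, stimulation and time cannot be told apart. Each of the 4 siRNA arrays was paired with the 1 untreated array of its cell type. The 4 pairs thus share 2 untreated arrays and are not independent. Of 9 T cell markers 6 fell (median -1.24), and of 5 Th1 markers 1 rose, Ifng (3.54), and 2 fell, Il12rb2 (-1.01) and Il18r1 (-2.08), the median of the 5 being -0.998. Of 4 Th2 markers 1 passed, Il13, which rose (4.89), and the median of the 4 was 2.06. Of 4 B cell markers 1 fell, of 7 macrophage and dendritic cell markers 2 fell, and of 5 fibroblast markers 1 rose and 1 fell. The summed CD8 T and natural killer cell markers were 6641 untreated and 1969 and 2584 with siRNA in Th1, and 246.6, 1083 and 1148 in Th2, and of 5 tested 1 rose, Eomes (3.46). The part of these markers in the values below was not tested. Of the 36 members, 15 passed (41.7%), 5 higher and 10 lower, against 38.3% of all probe sets, of which 21.2% were higher and 17.1% lower. The split depends on the scaling. On the deposited values, where the median of all probe sets shifted by 0.28, 15 members passed with 13 higher and 2 lower, beside 32.3% of all probe sets higher and 10.8% lower. After median centring 12 passed with 10 higher and 2 lower, beside 22.8% and 15.2% of all probe sets. Beside the members described next, Flna, a filament crosslinker (-0.65), Arpc4 (-0.60), Vasp (-0.57), Pfn1 (-0.54), Was (-0.51) and Coro1a (-0.51) were lower. Passing in the same direction under all 3 scalings were 7 members, namely Vcl, Elmo1, Rdx, Rhoa and Myh9, higher on the probe set used here, and Dock8 and Rac2, lower on it. Other probe sets of Myh9 went the opposite way, as given below.

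Among the GTPases, Rac2 had deposited signals of 4087 and 3958 in untreated Th1 and Th2 cells, 2596 and 2812 in Th1 with Thy1 and Trpm4 siRNA, and 2201 and 2280.1 in Th2. Every siRNA array was below both untreated arrays, a fall of 1.18 ± 0.13 on the log2 scale (adjusted p = 0.00228, limma, 4 of 4 pairs), and its second probe set fell by 2.33. Rhoa, the GTPase of rear contraction, had signals of 1142 and 1223 untreated, 2587 and 2519 in Th1 with siRNA, and 3268 and 3296 in Th2. It rose on this probe set by 0.71 ± 0.13 (adjusted p = 0.0101, limma, 4 of 4 pairs), while another probe set gave -0.35 (adjusted p = 0.0787). The atypical GTPase gene Rhoh fell on the probe set used here by 0.85 ± 0.27 (adjusted p = 0.0496, limma), a call lost in 10 of 14 alternatives. One of these was the omission of the untreated Th1 array (-0.30, adjusted p = 0.148, in a range of 0.00151 to 0.167), and its second probe set rose by 0.76.

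Among the activators of GTPases, Dock8 had signals of 995 and 714 in untreated Th1 and Th2 cells, 400.3 and 411 in Th1 with siRNA, and 327 and 351 in Th2. The untreated arrays stood above all others of the series. Dock8 fell by 1.48 ± 0.13 (adjusted p = 0.00143, limma, 4 of 4 pairs), and its other 2 probe sets also fell (-1.47 and -1.26). Elmo1 had signals of 288 and 291 untreated, 679 and 742 in Th1 with siRNA, and 850.5 and 819 in Th2. It rose by 0.89 ± 0.14 (adjusted p = 0.00553, limma, 4 of 4 pairs), and another probe set rose by 0.97, while the last gave -0.09 (adjusted p = 0.679).

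Among the linkers, Vcl rose from 14.7 to 89.8 and 117 in Th1 and from 71.9 to 600.0 and 647 in Th2, or by 2.13 ± 0.20 on the log2 scale (adjusted p = 0.00158, limma, 4 of 4 pairs). The untreated Th1 value was close to the floor of the scale, so the change there is understated. Rdx, the linker radixin, had signals of 572 and 733 untreated, 1949 and 1849 in Th1 with siRNA, and 1481 and 1680 in Th2. It rose by 0.84 ± 0.17 (adjusted p = 0.0138, limma, 4 of 4 pairs) and its other 2 probe sets by 1.60 and 1.80; the call was lost in 1 of 14 alternatives, without the Th1 Thy1 siRNA array (adjusted p = 0.0503, in a range of 0.00228 to 0.0503). Tln1 had signals of 1200.0 and 1276 untreated, 863 and 946 in Th1 with siRNA, and 1163 and 1222 in Th2. On this probe set it fell by 0.73 ± 0.13 (adjusted p = 0.00897, limma, 4 of 4 pairs), not on the deposited (-0.25, adjusted p = 0.235) or median-centred values (-0.45, adjusted p = 0.0664), in a range of 0.00256 to 0.235 over 14 alternatives, and another probe set of Tln1 rose by 1.60.

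Probe sets of Myh9 disagreed in this comparison. The one used here rose by 0.60 and another by 0.90, while a pair of others fell (-1.38 and -1.65), all passing, so no direction can be given for the gene. Nor can one be given for Tln1 and Rhoh, which fell on the probe set used and rose on another, as given above. Without each siRNA array in turn the count of members that passed was 7 to 9, against 15. Without Th1 Thy1 siRNA it was 7, without Th1 Trpm4 siRNA 9, without Th2 Thy1 siRNA 7 and without Th2 Trpm4 siRNA 8. Of the 76 other actin genes 28 passed (36.8%), 6 higher and 22 lower, against 38.3% of all probe sets. The WAVE complex gene Nckap1 (1.25 ± 0.17), Myo1e, a class I myosin (1.13 ± 0.24), Enah, of the Ena/VASP family (0.97 ± 0.20), and Cap1, a monomer recycling protein (0.85 ± 0.16), rose in 4 of 4 pairs. Apbb1ip (-2.38 ± 0.26), the integrin adaptor Fyb (-1.99 ± 0.17), the formin Fmnl1 (-1.81 ± 0.31) and the GTPase Rhoq (-1.67 ± 0.19) fell in 4 of 4.

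**Figure D5:**
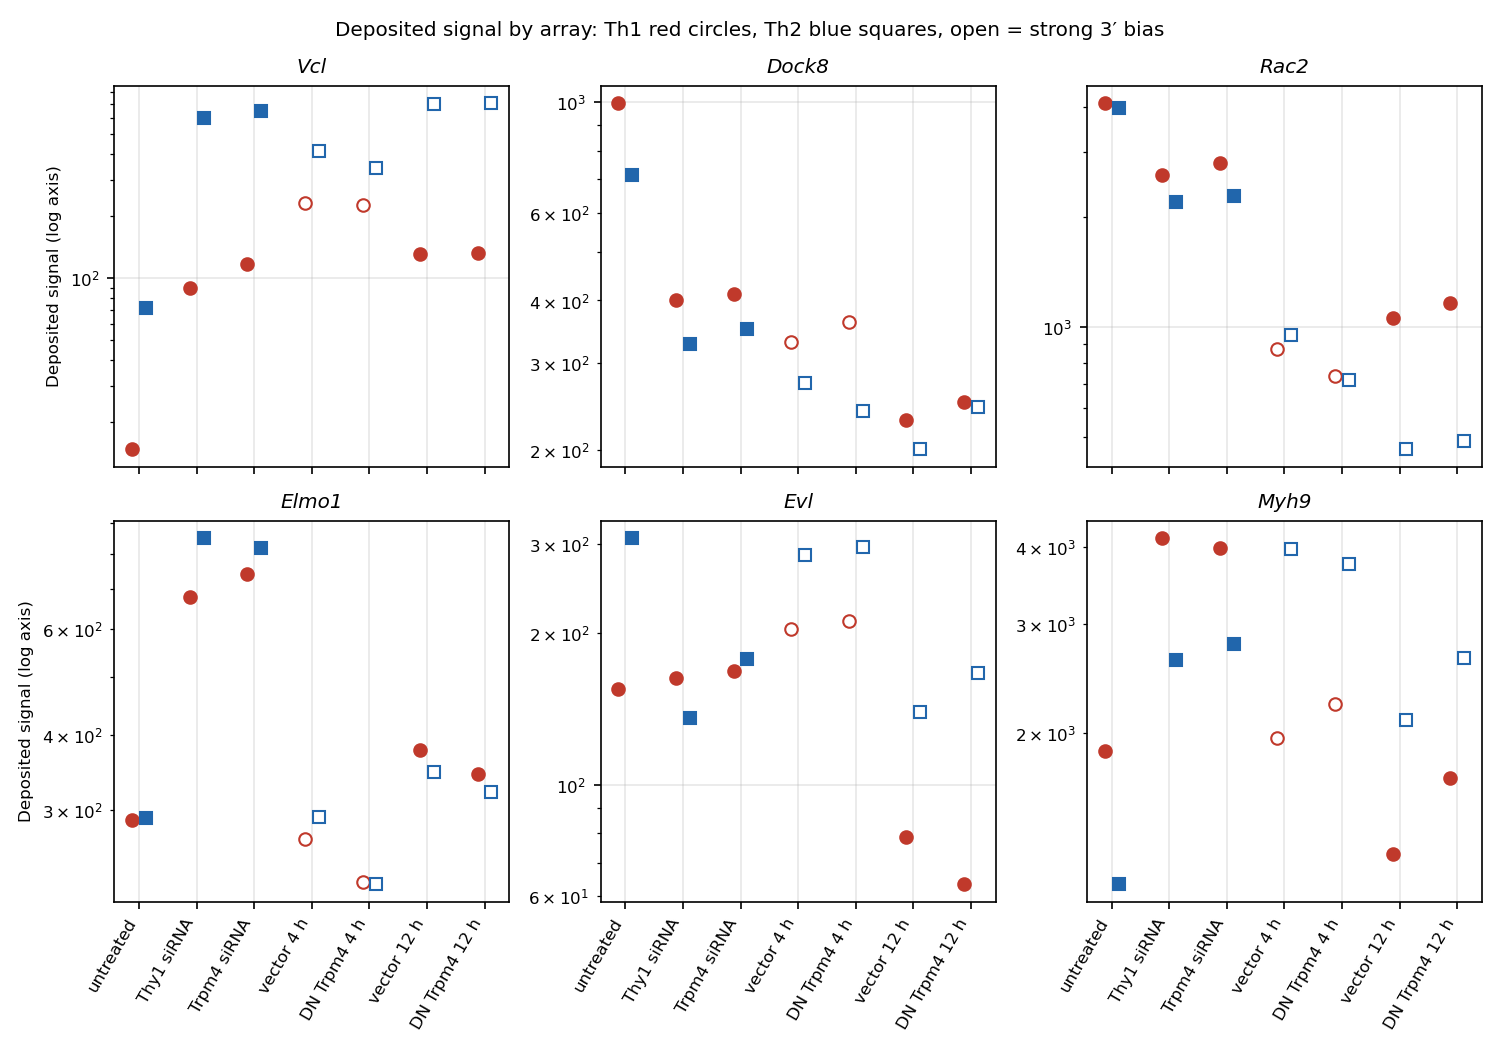
Deposited signal (y axis, log scale) of 6 genes on each of 14 arrays by treatment (x axis), with red circles for Th1, blue squares for Th2 and open symbols for arrays of strong 3′ bias. Vcl and Elmo1 are higher and Dock8 and Rac2 lower with siRNA than in untreated cells, and the Th2 square of Vcl lies above the Th1 circle in each treatment.

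The siRNA effect differed between Th1 and Th2 cells for 4 members (11.1%), 2 higher and 2 lower in Th1, against 24.5% of all probe sets (13.7% higher and 10.8% lower). In the same term 4 of 5 Th1 markers were lower (median -1.78), as were 2 of 5 CD8 T and natural killer cell markers, Klrd1 (-3.20) and Eomes (-2.14), while of 9 T cell markers 2 were higher and 3 lower and of 4 Th2 markers 1 was higher and 2 lower. Of 4 B cell markers 1 was higher and 1 lower, and of 7 macrophage and dendritic cell markers 2 were higher and 1 lower. Of 5 fibroblast markers 2 were higher, among them Lum (5.22), and 1 lower. Their part was not tested. Dock2, the main exchange factor for Rac in lymphocytes, had signals of 1478 untreated, 663 and 686 with siRNA in Th1, and of 875 untreated, 1119 and 1202 in Th2. Its log2 change was -1.48 and -1.52 in Th1 against -0.14 and -0.08 in Th2, a difference of -1.40 ± 0.16 (adjusted p = 0.0106, limma). Its other probe sets gave -0.92 and -1.06 without passing (adjusted p = 0.0609 and 0.112), and the other one of Rhoh gave 0.06. Rhoh differed by -1.11 ± 0.20 (adjusted p = 0.0226), with changes of -1.31 and -1.50 in Th1 and -0.24 and -0.35 in Th2. Myo1g, a class I myosin of blood cells, went from 1320.4 to 2576 and 2902 in Th1 and from 1362 to 1524 and 1598 in Th2, a difference of 0.83 ± 0.17 (adjusted p = 0.0309, limma). Arpc1a, an Arp2/3 subunit, went from 192 to 388 and 492 in Th1 and from 307 to 303 and 371 in Th2, a difference of 0.83 ± 0.21 (adjusted p = 0.0489). Dock2 passed under all 12 alternatives, and the calls of Rhoh, Myo1g and Arpc1a were lost in 3, 5 and 6 of them. Each cell type had 1 untreated array, so the errors of this term hold only the spread between siRNA arrays. No alternative could leave out an untreated array, and how far these calls rest on those arrays was not tested. With 1 siRNA array left out 1 or 2 members passed. It was 2 without Th1 Thy1 siRNA, and 1 without Th1 Trpm4 siRNA, Th2 Thy1 siRNA or Th2 Trpm4 siRNA. Of the other actin genes 23 of 76 passed, 11 higher and 12 lower, with the formin Diaph3 (1.94 ± 0.22) and the myosin Myo9b (-1.80 ± 0.16) at the ends.

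The change between 4 h and 12 h was read in Th2 cells, where both times had strong 3′ bias. It rests on 2 pairs, vector and DN Trpm4, with the spread shared with the Th1 pairs. Of the members 5 passed (13.9%), 2 higher and 3 lower at 12 h, against 10.1% of all probe sets (4.51% higher and 5.57% lower). The median was -0.13 over the members and 0.01 over all probe sets. Rac2 went from 951 and 718 at 4 h to 464 and 490 at 12 h, with no overlap, a fall of 0.76 ± 0.15 (adjusted p = 0.0182, limma), and its second probe set fell by 0.92. Elmo1 went from 292 and 225 to 347 and 321, a rise of 0.52 ± 0.14 (adjusted p = 0.0490, limma) that was lost in 9 of 13 alternatives (adjusted p from 0.0139 to 0.179). These signals of Elmo1 did not overlap between the times either. Normalised levels of 20 of the 36 members did not overlap here, a share not counted over all probe sets. Evl, of the Ena/VASP family, went from 286 and 296 to 139 and 167, a fall of 0.82 ± 0.15 (adjusted p = 0.0115, limma), while its other probe sets gave 0.40, -0.46 and -0.76 (adjusted p = 0.159, 0.0673 and 0.0387). Vcl went from 413 and 344 to 697 and 706, a rise of 1.08 ± 0.14 (adjusted p = 0.00347, limma). Myh9 went from 3978 and 3754 to 2098 and 2645, a fall of 0.70 ± 0.14 (adjusted p = 0.0171, limma), and 3 of its other 4 probe sets also fell (-0.74 to -0.65).

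With a pseudocount of 1 in place of 16 none of the 29467 probe sets passed here, members included, and without the Th2 vector pair 3 members passed, Rac2 and Elmo1 no longer among them. Over the same time 4 of 9 T cell markers fell, among them Cd3e (-0.53), Cd3g (-0.57) and Cd3d (-0.52), and of 5 Th1 markers 1 rose and 2 fell; their part was not tested. Of the other actin genes 16 of 76 passed (21.1%), 1 higher and 15 lower, against 10.1% of all probe sets. The formin Diaph2 rose by 0.75 ± 0.14 (adjusted p = 0.0152, limma). Fyb fell by 1.26 ± 0.14, Arhgap15, a GTPase activating protein for Rac, by 1.09 ± 0.15, the focal adhesion protein Zyx by 1.04 ± 0.15 and Myo1f, a class I myosin, by 0.93 ± 0.16.

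In Th1 cells the 12 h arrays had low and the 4 h arrays strong 3′ bias, so time and kind of array cannot be told apart. There 27 members passed (75%), 11 higher and 16 lower, against 56.1% of all probe sets (27% higher and 29.1% lower). Of 9 T cell markers 5 were higher and 2 lower, of 5 Th1 markers 1 was higher and 3 lower, and of 5 CD8 T and natural killer cell markers 2 were higher, among them Klrk1 (3.45), and 1 lower, Klrd1 (-2.08); their part was not tested. Among 38 other probe sets of the members that passed, 20 passed in the same direction and 5 in the opposite one, for Cfl1 (4.03 against -0.55), Msn, Cdc42, Rac2 (-2.02 against 0.59) and Diaph1, and no direction can be given for these 5 genes. Pfn1 had signals of 353 and 354 at 4 h and 2732 and 3234 at 12 h, a difference of 3.22 ± 0.16 (adjusted p = 2.06e-06, limma). Arpc4 had 184 and 163 at 4 h and 923 and 837 at 12 h, a difference of 2.49 ± 0.15. These were 2 of the genes that followed the kind of array in both cell types. The same held for Was (1.34 ± 0.14), Vav1 (-1.99 ± 0.15) and Diaph1 (-1.50 ± 0.14), the last a formin with another probe set at 1.48 in the opposite direction. Large differences were also seen for Capg, a filament capping protein (2.08 ± 0.17), Wipf1, the partner that stabilises WASP (-2.02 ± 0.14), and Coro1a (-1.28 ± 0.14), whose levels overlapped between the kinds over all 14 arrays. The GTPase gene Cdc42 (-0.45) and Msn, the linker moesin (-0.66), also passed here on the probe sets used, while other probe sets of both passed in the opposite direction (3.37 and 3.53). A second probe set of Wipf1 gave 0.13 (adjusted p = 0.496, limma). Without the Th1 vector pair 14 members passed and without the Th1 DN Trpm4 pair 13. Fmnl1 (2.83 ± 0.17) and Apbb1ip (2.23 ± 0.14) were highest and Fyb (-3.10 ± 0.14) and Arhgap15 (-2.94 ± 0.15) lowest among the other actin genes, of which 58 of 76 passed, 17 higher and 41 lower.

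These comparisons share arrays with one another and are not independent. The time effect differed between Th1 and Th2 for 16 members (44.4%), 7 higher and 9 lower, against 38.2% of all probe sets (18.1% higher and 20.1% lower). For Vcl, Th1 signals of 230.3 and 227 at 4 h and 130.3 and 133 at 12 h gave -0.46 (adjusted p = 0.0187, limma), while Vcl rose in Th2, a difference of -1.54 ± 0.19 (adjusted p = 0.000575). On other probe sets Cfl1 (4.10), Diaph1 (1.55) and Rac2 (-1.10) passed in the direction opposite to the one used. In this term 6 of 9 T cell markers were higher (median 0.92), and their part was not tested. The direction of Vcl was thus opposite in the 2 cell types, with unlike array kinds in Th1. Without the Th1 DN Trpm4 pair 10 members passed. Of the other actin genes 38 of 76 passed, 13 higher and 25 lower, with Fmnl1 (3.12 ± 0.24) and Gsn (-2.18 ± 0.24) at the ends.

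A comparison free of that contrast of array kinds set the retrovirus arrays of Th1 cells at 12 h against the Th1 siRNA arrays, 2 against 2, all of low 3′ bias. The groups differ in virus, siRNA and labelled stimulation, which cannot be told apart. Here 16 members passed (44.4%), 2 higher and 14 lower with retrovirus, against 46.2% of all probe sets (22.2% higher and 24% lower). Of 9 T cell markers 7 were higher with retrovirus (median 0.73), as were 3 of 5 Th1 markers, while 3 of 4 Th2 markers and 3 of 5 CD8 T and natural killer cell markers were lower, the last Cd8a (-2.18), Cd8b1 (-2.24) and Eomes (-0.69). Of 7 macrophage and dendritic cell markers 1 was higher and 3 lower. The part of these markers in the values below was not tested. On deposited and on median-centred values, where the median of all probe sets shifted by -0.18 and -0.16, 29 passed, with 1 higher and 28 lower in each. Of all probe sets 18.3% were then higher and 33.3% lower on deposited values, and 18.8% and 32% on median-centred values. Without the Th1 DN Trpm4 array at 12 h 10 passed. Rac2 had signals of 2596 and 2812 with siRNA and 1057 and 1160.5 with retrovirus, a difference of -0.82 ± 0.10 (adjusted p = 0.00242, limma). Diaph1 had 1840.0 and 1655 with siRNA and 657 and 691 with retrovirus, a difference of -0.88 ± 0.11 on this probe set, with -1.15 and 0.90 on its other 2. Coro1a fell by 0.79 ± 0.10 without overlap, and Evl differed by -0.95 ± 0.13 on the probe set used here. With 2 arrays against 2, levels of 30 of the 36 members did not overlap, a share not counted over all probe sets. Myo1g had 2576 and 2902 with siRNA and 771 and 929 with retrovirus, a fall of 1.21 ± 0.13 (adjusted p = 0.00130, limma). Myh9 went from 4138 and 3985 to 1272 and 1693, a difference of -0.96 ± 0.16. Arpc2 (-0.36), Wipf1 (-0.64), the WAVE protein gene Wasf2 (-0.53), Rac1 (-0.52), Dock8, Elmo1 (-0.61) and the thymosin gene Tmsb4x (-0.47) were also lower on the probe sets used. The Dock8 probe set used here gave -0.45, while its other probe sets rose by 1.24 and 0.89. The higher members were Capg, described next, and Vcl (0.47, adjusted p = 0.0226, limma). Vcl did not pass on deposited (0.32, adjusted p = 0.11, limma) or median-centred values (0.33, adjusted p = 0.0962).

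Of 23 other probe sets of the members that passed in that comparison, 8 passed in the same direction and 7 in the opposite one. Beside those of Diaph1 and Dock8 (2 sets) these were of Arpc2 (1.18), Elmo1 (0.48), Evl (0.50) and Ezr, so no direction can be given for these 6 genes. The other probe sets of Myh9 were all below 0 (-0.66 to -0.27). Capg had signals of 1765 and 2089 with siRNA and 3569 and 3257 with retrovirus on the probe set used here, a rise of 1.26 ± 0.12 (adjusted p = 0.000977, limma). Its second probe set had 939 to 1964 on the 8 retrovirus arrays of both cell types and 1.11 to 14.2 on the 6 arrays without retrovirus, so the sets did not overlap. The first Capg probe set showed no such split, with 822 to 3569 with retrovirus and 1336 to 4268 without. Ezr, the linker ezrin, had a difference of -0.73 ± 0.11 on the probe set used here (adjusted p = 0.00416, limma) and of 2.42 on its second. That second Ezr probe set had 47.2 to 53.5 on the 4 siRNA arrays and 273 to 757 on the other 10. What these second probe sets read was not tested, and their names carry the suffix that Affymetrix gives to probe sets with probes able to match other transcripts. The Cfl1 probe set used throughout carries the same suffix. Its other probe set went the opposite way in Th1 minus Th2 and between the times in Th1, as given above.

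Among the other actin genes 41 of 76 passed in this comparison (53.9%), 8 higher and 33 lower with retrovirus, against 46.2% of all probe sets. Myo1e (1.38 ± 0.13), Rhof, a GTPase of filopodia (0.96 ± 0.11), and the WAVE complex genes Brk1 (0.51 ± 0.10) and Nckap1 (0.50 ± 0.11) rose. Arhgap15 (-1.87 ± 0.11), Enah (-1.86 ± 0.16), the formin Diaph3 (-1.75 ± 0.14) and Tln2, a second talin (-1.54 ± 0.16), fell.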

How the data were processed

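The authors deposited 1 intensity per probe set and array on a linear scale, for 45101 probe sets. Probe summary and scaling are not given in the sources used here. Probe sets were named through the platform annotation (34958 with 1 gene, 932 with several, 9211 with none), and 64 control probe sets were left out of tests. Signals were quantile normalised, taken as log2(signal + 16), with a floor of 4.0, and kept when above the array median on at least 2 of 14 arrays (29467 probe sets). Tests were two-sided, run under R 4.3.3 as moderated linear models in limma 3.58.1, the pair of arrays (the cell type, for siRNA against untreated) as a block and 6 (Th1 minus Th2) to 1 (Trpm4 siRNA) residual degrees of freedom. Th1 at 12 h was compared with siRNA without a block. The fits were tested on simulated data.

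The members and gene lists were chosen with earlier results of these data known. Full values were given for up to 8 members that passed per comparison, by size of difference; where fewer than 4 passed, members that did not pass but had one sign in all pairs were added, up to 3 per direction by test statistic (Arpc5 and the other probe sets in Th1 minus Th2 were added after their values were seen), and of the other actin genes up to 4 per direction. Alternatives were other scalings, pseudocounts of 1 and 64, other filters, 1 probe set per gene, trend and robust eBayes, no block, subsets by 3′ bias, averaged sets and each array or pair left out. The differences between cell types in the time and siRNA effects were added after seeing the data.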

Additional observations from a re-analysis of the deposited data

Results flagged for a closer look

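The change from 4 h to 12 h differed between Th1 and Th2 cells for 16 of the 36 actin and motility genes by the interaction term of the limma fit (44.4%), against 38.2% of all probe sets. The difference of the log2 effects, Th1 minus Th2, was positive for Pfn1 (3.29), Arpc4 (2.46), Capg (1.84), Was (1.76), Rac2 (1.35), Vasp (0.85) and Rhoh (0.79). It was negative for Vav1 (-1.89), Wipf1 (-1.68), Vcl (-1.54), Diaph1 (-1.46), Rock1 (-1.09), Coro1a (-0.93), Wasf2 (-0.90), Actr3 (-0.74) and Cfl1 (-0.61). In Th1 cells the times were measured on arrays of unlike 3′ bias and in Th2 cells on arrays of like bias, and these cannot be told apart. Other probe sets of Cfl1, Diaph1 and Rac2 passed in the opposite direction.

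The siRNA effect against untreated cells differed between the cell types for Dock2 (-1.40), Rhoh (-1.11), Myo1g (0.83) and Arpc1a (0.83), by the same kind of term and on arrays of low 3′ bias only. These 4 of 36 (11.1%) stood beside 24.5% of all probe sets. Each cell type had 1 untreated array, so this term holds no spread between untreated arrays.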

How the results depend on the processing

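Counts are of members that passed limma's test at an adjusted p under 0.05. For Th1 minus Th2 (2) they were 1 after median centring, 1 with a pseudocount of 1, 1 over the 3 pairs of low 3′ bias, 0 over 4 averaged sets, 0 without the pairs as a block, and 1 to 3 with a pair left out. For 12 h minus 4 h in Th2 (5) they were 0 and 10 with pseudocounts of 1 and 64, 8 with a filter at the 75th percentile, 9 with trend and robust eBayes and 3 to 5 with a pair left out. In Th1 (27) they were 13 to 30 with a pair left out. For siRNA minus untreated (15) they were 7 to 21 with an array left out. For Th1 retrovirus at 12 h minus siRNA (16) they were 29 on deposited and on median-centred values, 25 with trend and robust eBayes and 10 to 15 with an array left out. For the difference of the time effect (16) they were 10 to 19, and for that of the siRNA effect (4) 2 and 8 with pseudocounts of 1 and 64, 8 with the stricter filter, 7 with 1 probe set per gene, 12 with trend and robust eBayes and 1 to 2 with an array left out. The causes were not tested. The 4 Trpm4 comparisons stayed at 0 members under the alternatives run for them. For Trpm4 siRNA over Thy1 siRNA the main fit had 1 residual degree of freedom. Even the targets Thy1 and Trpm4 did not pass in it, so its count of 0 says little about the members. Among the comparisons fitted without the pair block, no other count left the range of 1.5 times its value. Of 779 alternative values for named members, 719 kept direction and side of the threshold, 55 lost the call, 4 gained it and 1 reversed, which was Cttn in the Trpm4 effect of Th1 minus Th2 (0.019 without the Th1 pair at 12 h, against -0.22, and -0.38 without the Th1 pair at 4 h, in a range with a pair left out of -0.382 to 0.019). Signal near the floor limits dim probe sets such as the second one of Vcl.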
